A study of Mus musculus with 3 samples.

Results

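The 8 genes described here encode transcription factors of naive T cells: Tcf7, Lef1, Bach2, Satb1, Bcl11b, Foxp1, Foxo1 and Foxo3. They were given as a list of names, and all 8 were found among the 50600 annotated genes by their Ensembl identifiers. Total RNA was sequenced from primary mouse cells of strain C57BL/6NJ. Their label is T-helper 1, which names CD4 T cells committed to interferon gamma production, and the protocols name a differentiation. There was 1 group of 3 libraries, labelled biological replicates 1, 2 and 3, each from its own biosample with the same donor identifier. Sex was labelled as not collected and age as unknown, no genotype beyond the strain was given, and the table headers carried a time of 0 hours. With 1 group, values could be compared only between genes within a library and between the 3 libraries, and p-values between libraries measure only the spread of these samples, which may be technical.

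In resting T cells these factors hold a shared programme in place. TCF-1 (from Tcf7) and LEF-1 are HMG-box proteins that bind the same DNA core, act with beta-catenin or with Groucho corepressors, and keep T cells able to renew themselves. FOXO1 and FOXO3 are forkhead proteins that the kinase AKT drives out of the nucleus after receptor stimulation, and FOXO1 in the nucleus turns on genes of lymph node homing and survival such as Ccr7, Klf2 and Il7r. FOXP1 is a forkhead repressor that holds naive T cells in quiescence, BACH2 is a bZIP repressor of effector genes, and BCL11B and SATB1 set T lineage identity, BCL11B as a zinc finger protein working with the NuRD complex and SATB1 as an organiser of chromatin loops.

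The libraries held 2510319 to 4305077 counts. Genes whose exons overlap exons of the other strand took 63.1%, 53.8% and 76.5% of all counts in replicates 1, 2 and 3, a share that was lowest in replicate 2 and highest in replicate 3. The fragments were counted with the first read on the strand of the gene. The library kit was not given in the sources used here, and with a kit of the reverse orientation a gene's counts would hold RNA transcribed from the strand facing it. All 8 T cell markers and all 5 naive T markers examined reached 1 TPM (a length-scaled level that sums to the same total in each library, computed from the deposited counts) in each library. Of 8 Th1 markers, 3 did, and the defining genes Tbx21 (1, 3 and 0 counts) and Ifng (1, 3 and 0 counts) were near 0. The libraries are therefore called here by their label only, since the defining Th1 transcripts were near 0 while the naive T markers were not. Summed levels of the marker lists were 123.05 to 401 TPM for 6 B cell genes, with Ms4a1 and Igkc at 0 counts and Ighm as the highest, 73.6 to 110 TPM for 5 myeloid genes, led by Csf1r, at most 0.926 TPM for 4 NK genes, at most 4.88 TPM for 4 dendritic cell and MHC class II genes, at most 1.83 TPM for 4 stromal and epithelial genes and 0 for 3 erythroid and platelet genes. Among the myeloid genes, Csf1r, which has exon overlap, had 744, 638 and 699 counts. The others had few: Cd68 17, 14 and 27, Itgam 3, 9 and 1, Lyz2 0, 1 and 0, and S100a8 0. Of the CD8 markers, Cd8a had 0, 1 and 0 counts and Cd8b1 27, 53 and 17. The part of other cells in the levels below was not tested. In bulk samples, fewer cells of a type and less RNA per cell cannot be told apart.

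Of the 8 genes, 5 have an annotated feature on the other strand that overlaps their exons or lies within 5 kb, and in 3 of them, Tcf7, Lef1 and Satb1, that feature spans the start of the gene. The windows at the starts of these 3 genes and of Foxo1, whose other-strand feature begins just after its start, are shown because the values of these features are set against the genes' own below. Each runs from 250 bases before to 50 bases after a RefSeq start site (GRCm38.p6), chosen as the entry nearest to the start of the gene in the deposited tables. Capitals mark matches on either strand to the 6 motifs searched, which were the TATA box (TATAAA), the CCAAT box, the GC box (GGGCGG), the Ets core (CCGGAA), the forkhead motif (GTAAACA) and the core of the TCF and LEF motif (CTTTGA). The windows are chr11:52282965-52283264 (minus strand) for Tcf7, chr3:131110073-131110372 (plus strand) for Lef1, chr17:51833241-51833540 (minus strand) for Satb1 and chr3:52268087-52268386 (plus strand) for Foxo1.
Tcf7: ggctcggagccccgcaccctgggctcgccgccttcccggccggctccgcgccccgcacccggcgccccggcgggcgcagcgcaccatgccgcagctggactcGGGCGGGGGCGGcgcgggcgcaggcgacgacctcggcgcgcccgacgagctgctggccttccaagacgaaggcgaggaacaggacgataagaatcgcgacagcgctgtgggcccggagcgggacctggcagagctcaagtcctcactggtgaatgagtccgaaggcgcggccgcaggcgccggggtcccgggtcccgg
Lef1: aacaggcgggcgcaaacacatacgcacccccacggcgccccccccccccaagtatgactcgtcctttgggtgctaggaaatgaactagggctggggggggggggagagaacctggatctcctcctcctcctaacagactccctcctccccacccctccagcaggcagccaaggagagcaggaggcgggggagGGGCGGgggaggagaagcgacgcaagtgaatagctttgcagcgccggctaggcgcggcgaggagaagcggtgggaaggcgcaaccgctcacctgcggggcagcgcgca
Satb1: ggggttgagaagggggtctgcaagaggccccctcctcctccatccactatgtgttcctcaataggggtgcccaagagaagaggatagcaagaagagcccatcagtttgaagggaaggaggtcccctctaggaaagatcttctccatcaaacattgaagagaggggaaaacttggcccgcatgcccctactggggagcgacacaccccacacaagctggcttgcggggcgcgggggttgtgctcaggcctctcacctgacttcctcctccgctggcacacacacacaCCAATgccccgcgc
Foxo1: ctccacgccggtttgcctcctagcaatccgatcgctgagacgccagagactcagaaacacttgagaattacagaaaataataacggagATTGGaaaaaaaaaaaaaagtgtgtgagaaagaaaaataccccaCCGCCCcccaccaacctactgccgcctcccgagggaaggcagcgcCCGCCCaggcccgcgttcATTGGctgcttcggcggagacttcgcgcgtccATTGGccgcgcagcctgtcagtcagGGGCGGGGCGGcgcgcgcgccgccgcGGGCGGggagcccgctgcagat

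A window was found for all 8 genes, 6 of them within 200 bases of the deposited start, with the Foxp1 window 1728 and the Bach2 window 178631 bases away. The GC content ran between 43.0% for Bcl11b and 76.3% for Tcf7, against a median of 52.7% over all 32851 windows, and 6 of the 8 lay above that median. The GC box was present in 5 of the 8 windows (Tcf7, Lef1, Foxp1, Foxo1 and Foxo3) and in 35.7% of all windows, with 5 matches each in Foxo1 and Foxo3. The CCAAT box was found in 3 of the 8 (Bach2, Satb1 and Foxo1) and in 37.4% of all windows. The TCF and LEF core was found in Bach2 and Bcl11b, against 16.0% of all windows, the Ets core in Bach2 alone, against 14.9%, the TATA box in Bcl11b alone, against 13.6%, and the forkhead motif in none of the 8, against 3.65%. These are matches of letters in the windows and not binding sites.

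Tcf7 was by far the highest of the 8 genes. Tcf7 (ENSMUSG00000000782.15, chromosome 11, 52252371 to 52283014, minus strand, mm10) held 2898, 4967 and 1197 counts in replicates 1, 2 and 3, over 2625 exonic bases. That is a level of 586, 966 and 305 TPM. The mean was 619 ± 332 TPM (SD, n = 3). In TPM over all genes, replicate 2 was the highest and replicate 3 the lowest for every gene of the set. The summed levels of the 5 naive T markers, 842, 1368 and 381 TPM, had the same order. Within each library, Tcf7 ranked 84, 61 and 185 by level among 21764 protein-coding genes.

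Tcf7 kept nearly the same share of the set in every library although the levels differed. The summed level of the 8 genes was 831, 1351 and 434 TPM in replicates 1, 2 and 3. Tcf7 made up 70.5%, 71.5% and 70.4% of these sums, a mean of 70.8% ± 0.590 (SD, n = 3). Lef1 made up 8.04%, 7.27% and 10.97%, Satb1 5.54%, 5.09% and 5.11%, and Foxo3 1.27%, 1.09% and 1.20%. The Lef1 share was highest in replicate 3, where the shares of Foxo1 (4.14%, 4.78% and 3.47%) and Bach2 (2.68%, 2.45% and 1.96%) were lowest.

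**Figure D1:**
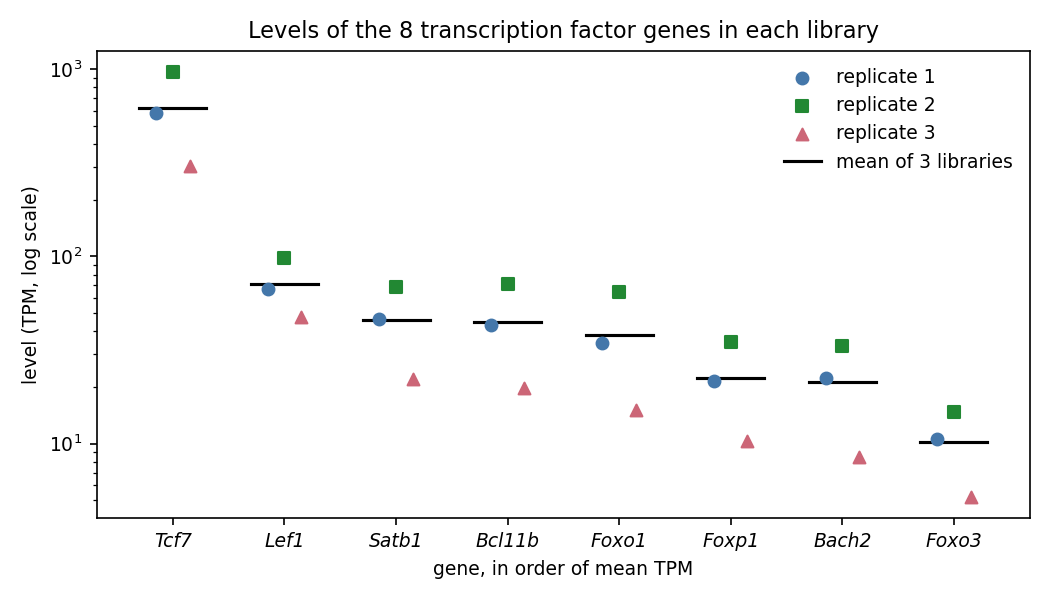
Level of each of the 8 genes in TPM (log scale) in replicates 1, 2 and 3 (points), with the mean of the 3 libraries as a bar. Tcf7 lies between 305 and 966 TPM, and in TPM over all genes every gene is highest in replicate 2 and lowest in replicate 3. In TPM over genes with no exon overlap, Lef1 was highest in replicate 3 (239, 271 and 276 TPM).

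**Figure D2:**
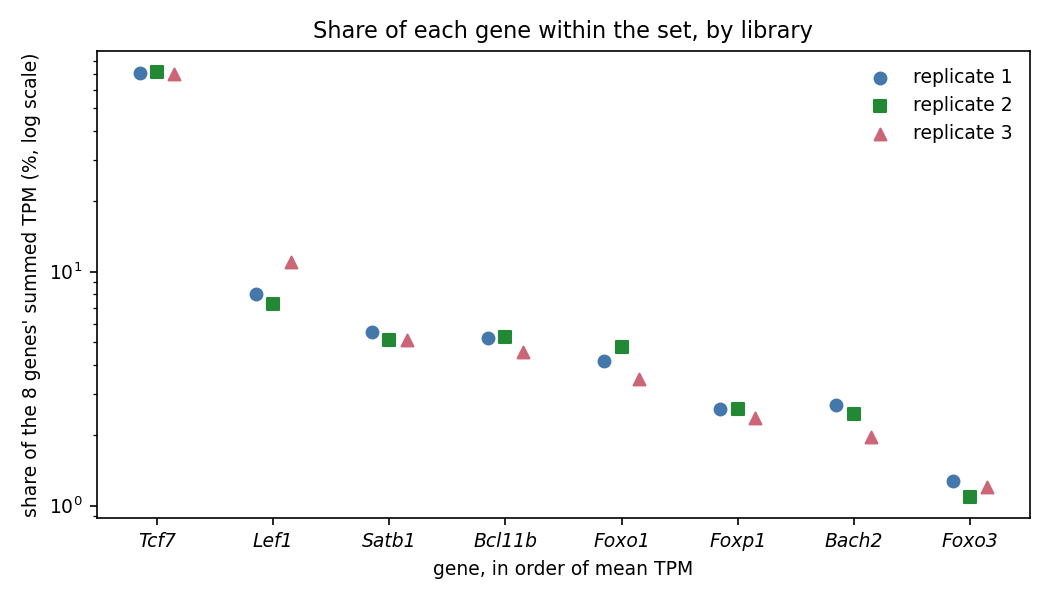
Share of each gene in the summed TPM of the 8 genes (%, log scale) in replicates 1, 2 and 3. The Tcf7 share stays between 70.4% and 71.5%, and the Lef1 share is highest in replicate 3, at 10.97%.

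Of the HMG-box pair, Lef1 (chromosome 3, 131110471 to 131224356, plus strand) was second, with 1106, 1691 and 625 counts and a level of 66.9, 98.2 and 47.6 TPM. Its coefficient of variation over the libraries, 36.04%, was the lowest of the 8. Tcf7 exceeded Lef1 by a log2 ratio per base of 3.04 ± 0.32 (SD, n = 3), in the same direction in all 3 libraries, where an exact sign-flip permutation test cannot go below p = 0.25. Without length scaling, the mean log2 ratio of Tcf7 over Lef1 was 1.29.

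By summed exonic length, the chromatin factors Satb1 and Bcl11b followed and could not be separated. Satb1 (chromosome 17, 51736187 to 51833290, minus strand) had 1650, 2564 and 630 counts over 19027 exonic bases and stood at 46.1, 68.8 and 22.2 TPM. Bcl11b (chromosome 12, 107910403 to 108003602, minus strand) had 659, 1129 and 239 counts over 8111 bases and stood at 43.2, 71.04 and 19.7 TPM. Their log2 ratio, Satb1 over Bcl11b, was 0.072 ± 0.11 and changed sign in replicate 2. In counts without length scaling, Satb1 was higher than Bcl11b in all 3 libraries. Lef1 exceeded Satb1 by 0.72 ± 0.33 on the log2 scale, in all 3 libraries.

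The forkhead genes lay below them. Foxo1 (chromosome 3, 52268336 to 52353221, plus strand) was counted at 561, 1097 and 195, with a level of 34.4, 64.6 and 15.1 TPM and the highest coefficient of variation, 65.7%. Foxp1 (chromosome 6, 98925338 to 99522721, minus strand), the longest gene of the set at 597 kb, had 556, 945 and 212 counts and a level of 21.5, 35.1 and 10.3 TPM. Foxo3 (chromosome 10, 42181841 to 42276755, minus strand) was the lowest of the 8, with 151, 219 and 59 counts and a level of 10.6, 14.8 and 5.21 TPM.

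Among annotated protein-coding genes Foxo3 ranked 5352, 5442 and 5508 in replicates 1, 2 and 3. The lowest rank of the other 7 genes was 4135, for Bach2 in replicate 3. Bach2 (chromosome 4, 32238804 to 32586108, plus strand), with 417, 646 and 126 counts, stood at 22.3, 33.2 and 8.48 TPM. It lay beside Foxp1, with a log2 ratio of Foxp1 over Bach2 of 0.103 ± 0.17 whose sign differed in replicate 1.

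Of the 7 neighbours in the order Tcf7, Lef1, Satb1, Bcl11b, Foxo1, Foxp1, Bach2, Foxo3, 5 kept their direction in all 3 libraries with a mean log2 ratio above its SD. The exceptions were Satb1 with Bcl11b and Foxp1 with Bach2. Bcl11b exceeded Foxo1 by a log2 ratio of 0.28 ± 0.13, Foxo1 exceeded Foxp1 by 0.70 ± 0.17, and Bach2 exceeded Foxo3 by 0.98 ± 0.25 (SD, n = 3). The levels depend on the length used. With the longest protein-coding transcript of GENCODE M21 as length, 7177 bases for Foxp1 against 13751 summed exonic bases, Foxp1 lay above Foxo1. Without length scaling, Satb1 lay above Lef1. With either choice, 6 of the 7 neighbours in the resulting order kept their direction with a mean log2 ratio above its SD. The longest transcript was 6243 bases for Satb1, against 19027 summed exonic bases, and 8111 for Bcl11b by both measures. The shares within the set rest on the same summed lengths. The levels depend also on the genes that enter the TPM total. The median of the 8 mean levels was 41.3 TPM over all genes and 142 TPM over genes without exon overlap.

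The libraries were then compared to ask whether the 8 genes varied more than counting error allows. Of the 8, 7 did (Poisson chi-square test on effective library sizes from edgeR's trimmed mean of M-values, TMM, adjusted over all 10662 genes tested), 6 of them lower in replicate 3 than in replicate 2 and Lef1 higher. Over all genes tested the same test called 62.4%, with 33.2% higher and 29.2% lower in replicate 3, so most genes varied in this way. With DESeq2 size factors 7 of the 8 were called, against 58.1% of all genes tested, and on library totals without TMM 8 of 8, against 82.5%, with 58.4% lower in replicate 3. Without a filter on low counts 7 were called, against 40.1%. With 1 library left out, 7 were called without replicate 1 against 60.8%, 7 without replicate 2 against 49.7%, and 5 without replicate 3 against 28.1% of all genes tested, with 8.09% higher in replicate 2 than in replicate 1. The test compares these libraries and not conditions. With all 3 libraries in the fit, its p-values cover the 3 together. They do not test the difference between replicates 3 and 2, which is given for direction only. The median log2 difference, replicate 3 over replicate 2, was −0.56 over the 8 genes and −0.11 over all genes tested.

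Tcf7 had 803, 973 and 685 CPM (counts scaled to the TMM library size) in replicates 1, 2 and 3. It varied over the 3 libraries (adjusted p = 1.8e-32, Poisson chi-square with edgeR's TMM), with a log2 difference of −0.51 for replicate 3 over 2. The next p-values are from the same test over the 3 libraries. Foxo1 had 155, 215 and 112 CPM, the largest difference of the 8 at −0.94 (adjusted p = 3.5e-20). Bach2 had 116, 127 and 72.1 CPM and differed by −0.81 (adjusted p = 1.4e-07). Bcl11b differed by −0.69, Foxp1 by −0.61 and Satb1 by −0.48.

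Lef1 and Foxo3 stood apart from the other 6. Lef1 had 306, 331 and 358 CPM, a difference of 0.11 in the other direction (adjusted p = 0.013), and on library totals without TMM its difference was −0.66, so its direction rests on the scaling. Foxo3 had 41.8, 42.9 and 33.8 CPM and did not pass (adjusted p = 0.31, Poisson chi-square with edgeR's TMM). Its difference was −0.34, and with the fewest counts of the 8 it gave the test the least to work with.

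How the 8 genes compare depends on which genes set the scale, and genes shift by their annotation class. Between replicates 3 and 2, the median log2 difference in TMM-scaled CPM was 0.996 over the 4418 tested genes with exon overlap, −0.28 over the 3644 with an other-strand gene within 5 kb, and −0.45 over the 2600 with none. Bcl11b, Foxp1 and Foxo3 belong to the last class, Tcf7 to the middle one, and Lef1, Bach2, Satb1 and Foxo1 have exon overlap. The last 4 lay between −0.94 and 0.11, all below the median of their own class.

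With the scale set by the genes with no other-strand gene within 5 kb, 4 of the 8 genes varied beyond counting error, against 53.1% of all genes tested. The p-values here are from the Poisson chi-square test with edgeR's TMM over the 3 libraries, and the differences are of replicate 3 over 2. Tcf7 then had 825, 893 and 863 CPM (adjusted p = 0.0071). Its difference was −0.049, and for replicate 1 over 2 it was −0.11. Lef1 had 315, 304 and 451 CPM (adjusted p = 1.8e-16) and was higher in replicate 3 by 0.57. Foxo1, with 160, 197 and 141 CPM (adjusted p = 1.5e-06), differed by −0.49. Bach2, with 119, 116 and 90.9 CPM (adjusted p = 0.046), differed by −0.35. Satb1, Bcl11b, Foxp1 and Foxo3 did not pass, with differences between −0.24 and 0.11. When the variance was widened by the common dispersion of the 3 libraries, 0.141, 0 of the 8 passed in the Poisson-based test with edgeR's dispersion, and 0 had an unadjusted p under 0.05, while 3.79% of all genes tested passed.

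**Figure D3:**
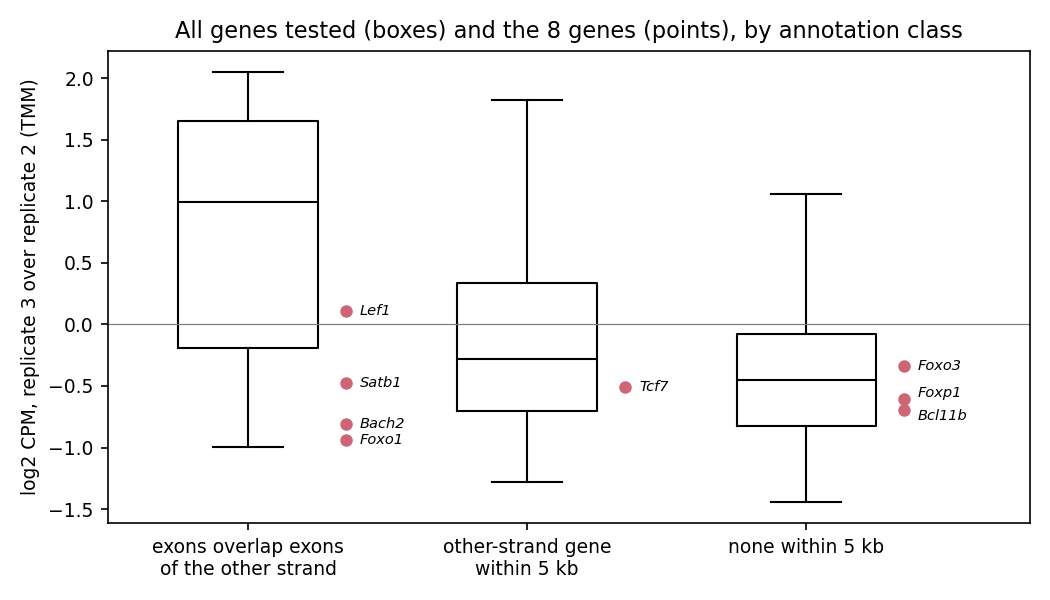
Log2 difference in TMM-scaled CPM, replicate 3 over replicate 2, of all genes tested by annotation class (boxes show quartiles and median, whiskers the 5th and 95th percentile) and of the 8 genes (points). The 8 genes lie between −0.94 and 0.11, with Lef1 the highest.

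In raw counts, the annotated features on the other strand differed less between libraries than the genes they lie opposite. Raw counts are not scaled to library size, and over all genes tested their median log2 ratio of replicate 3 to replicate 2 was −1.64. Raw counts that stay even between these libraries are therefore a rise in replicate 3 relative to most genes tested. Gm43352, opposite the start of Lef1 (chromosome 3, 131109026 to 131112090, minus strand), shares 1208 exonic bases with it and had 3034, 3113 and 3159 counts in replicates 1, 2 and 3. Bach2os (chromosome 4, 32559680 to 32571708, minus strand), which shares 537 bases with Bach2, had 1637, 1461 and 1560 counts. Gm20402 (chromosome 3, 52268435 to 52269435, minus strand), with 674 of its 687 bases inside Foxo1 exons, had 1732, 2296 and 1459 counts.

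Gm6934 (chromosome 17, 51832819 to 51834723, plus strand), which shares 128 bases with Satb1, had 157, 141 and 122 counts. Taken as a sum, these 4 features held 6560, 7011 and 6300 counts, a log2 ratio of replicate 3 to replicate 2 of −0.15 in raw counts. The 4 genes they overlap held 3734, 5998 and 1576 counts, a log2 ratio of −1.93. The 4 features therefore had 1.76, 1.17 and 3.997 times the counts of the 4 genes.

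Per exonic base, Gm20402 had 38.9, 26.4 and 94.4 times the counts of Foxo1, Bach2os had 17.9, 10.3 and 56.4 times those of Bach2, and Gm43352 had 7.87, 5.28 and 14.5 times those of Lef1. Gm6934 had 0.9504, 0.549 and 1.93 times the counts of Satb1, below its gene in replicates 1 and 2. A630014C17Rik (chromosome 11, 52276055 to 52286179, plus strand) spans the start of Tcf7 without exon overlap. It had 477, 354 and 321 counts, a raw log2 ratio of −0.14 against −2.05 for Tcf7, and per base it had 0.145, 0.0627 and 0.236 times the counts of Tcf7. For comparison, the median raw log2 ratio over tested genes with no other-strand gene within 5 kb was −1.99, and Bcl11b, Foxp1 and Foxo3 lie in that class. The part that fragments of the other strand have in the counts of the 8 genes was not tested.

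**Figure D4:**
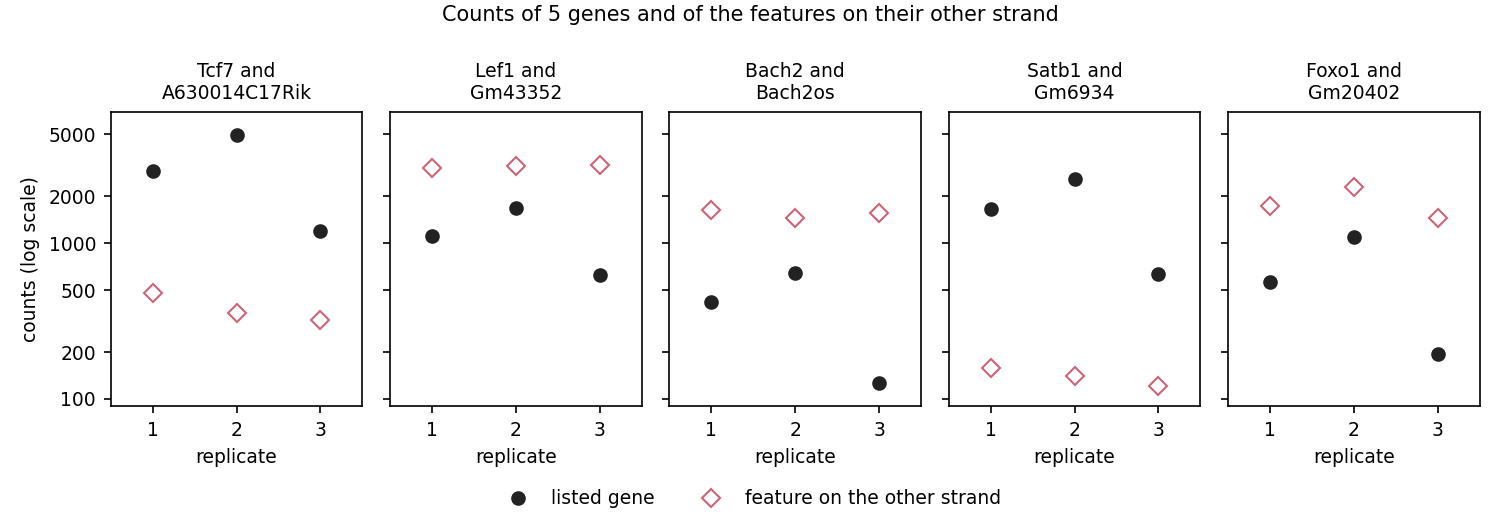
Raw counts (log scale) in replicates 1, 2 and 3 of 5 genes (filled circles) and of the annotated feature on the other strand of each (open diamonds). The genes are lowest in replicate 3, while Gm43352 stays between 3034 and 3159 counts and Bach2os between 1461 and 1637.

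On the strand of the genes, few features share exonic bases, on which featureCounts by default counts a fragment for neither gene. Satb1 shares 156 bases with Gm36931, and Foxp1 shares 300 with the protein-coding Gm20696 and 135 with Gm49348. These features had at most 20 counts in a library. Other same-strand features overlap the spans without sharing exonic bases. Of these, E430014B02Rik in Satb1 had 22, 34 and 1 counts and Bach2it1 in Bach2 11, 15 and 2. Gm20705 in Foxp1 had 28, 26 and 24 counts, and Gm26551, which overlaps the end of Tcf7, had 72, 60 and 30. All 4 were lowest in replicate 3, with raw log2 ratios of replicate 3 to 2 between −5.09 for E430014B02Rik and −0.12 for Gm20705.

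Genes of the set were next compared with relatives of the same family by their counts. Whether these counts come from RNA of each gene's own strand was not tested. Of 11 pairs, the listed gene was higher in all 3 libraries in 8, the relative in 2, and 1 changed direction. Ratios are of summed counts per exonic base, with exact Clopper-Pearson 95% intervals that cover counting error only. The 3 relatives Bcl11a, Foxp2 and Foxo6 had 0 counts in all 3 libraries. Each was set at 3 counts in each library, and in every library Bcl11b was at least 129-fold higher than Bcl11a, Foxp1 at least 84.0-fold higher than Foxp2 and Foxo1 at least 19.6-fold higher than Foxo6.

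Among the TCF genes, Tcf7l1 had 13, 10 and 16 counts and Tcf7l2 0, 2 and 0. Tcf7 exceeded Tcf7l1 by a ratio of 347 (interval 254 to 489) and Tcf7l2 by 15084 (interval 4175 to 124575). Tcf7 exceeded Lef1 by 8.87 (interval 8.52 to 9.22). The size of this ratio depends on the length used, which the interval does not cover. Lef1 has 8788 summed exonic bases, and its longest protein-coding transcript has 3482. Bach2 exceeded Bach1, a bZIP repressor of haem response genes, by 3.47 (interval 2.997 to 4.03), and Bach1 had 62, 128 and 23 counts.

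In the FOXO family, Foxo1 exceeded Foxo3 by 3.77 (interval 3.40 to 4.20), with a log2 ratio of 1.70, 2.13 and 1.53 in replicates 1, 2 and 3. Foxo4, however, stood above both, with 604, 755 and 571 counts and a level of 104 ± 10.4 TPM (SD, n = 3). Foxo1 over Foxo4 was 0.386 (interval 0.362 to 0.412). In raw counts, Foxo4 differed less between libraries than Foxo1, with a log2 ratio of replicate 3 to 2 of −0.40 against −2.49. In TMM-scaled CPM the log2 difference was 1.14 for Foxo4 against −0.94 for Foxo1. With the scale set by genes with no other-strand gene within 5 kb, it was 1.60 against −0.49. Foxo4 has another gene within 5 kb on the other strand.

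In the FOXP family, Foxp1 over Foxp4 was 1.25 (interval 1.13 to 1.38), but the ratio was below 1 in replicate 3. The mean log2 ratio was 0.16 ± 0.49 (SD, n = 3), and it was 0.077 without replicate 1, −0.041 without replicate 2 and 0.43 without replicate 3. Foxp4, the closest relative of Foxp1 in level, stood at 17.3, 23.9 and 13.6 TPM. Foxp3, the regulatory T cell factor, had 1003, 935 and 1203 counts, and Foxp1 over Foxp3 was 0.158 (interval 0.149 to 0.168). The raw log2 ratio of replicate 3 to 2 was 0.36 for Foxp3 against −2.16 for Foxp1. In TMM-scaled CPM the log2 difference was 1.91 for Foxp3 against −0.61 for Foxp1. Foxp3 has exon overlap, and whether its counts come from its own strand was not tested.

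**Figure D5:**
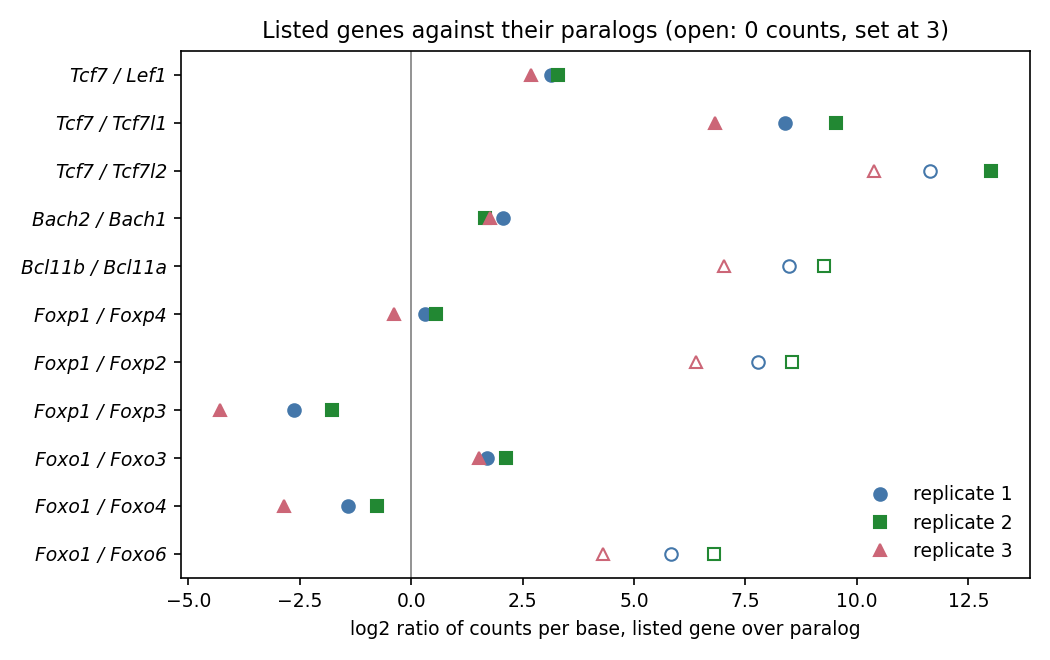
Log2 ratio of counts per exonic base, listed gene over relative, in replicates 1, 2 and 3. Open symbols mark relatives with 0 counts in that library, set at 3 counts. Foxp3 and Foxo4 lie above Foxp1 and Foxo1 in all 3 libraries, and Foxp1 over Foxp4 changes sign in replicate 3.

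The partners, regulators and targets of the 8 factors were described from 7 lists with 96 annotated genes, of which 79 reached 1 TPM in all 3 libraries. Of the 80 tested between libraries, 3 were higher and 51 lower in replicate 3 than in replicate 2, against 33.2% and 29.2% of all genes tested. The median log2 difference was −0.45 over the lists together, −0.56 over the 8 genes and −0.11 over all genes tested. It was also −0.45 over tested genes with no other-strand gene within 5 kb. On the scale of those genes, 16 of the list genes were higher and 21 lower, against 43.7% and 9.39% of all genes tested. The median on that scale was 0.0096 over the lists, −0.10 over the 8 genes and 0.34 over all genes tested. The counts of each list below are to be read against these shares of all genes tested. Of the 96 genes, 29 have exon overlap.

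FOXO1 targets were the highest list. All 12 reached 1 TPM in each library, with a median of 97.2 TPM, and 9 were lower and 1, Pik3ip1, higher in replicate 3 with TMM over all genes. On the scale of genes with no other-strand gene within 5 kb, 6 were lower and 2 higher. Txnip, which restrains glucose uptake, stood at 259 ± 159 TPM with exon overlap, and Il7r, the interleukin 7 receptor, at 205 ± 107 TPM (SD, n = 3). The lowest, Bcl2l11, which encodes the death factor BIM, stood at 7.32 ± 3.47 TPM and did not pass (adjusted p = 0.40, Poisson chi-square with edgeR's TMM).

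Upstream of FOXO, all 16 kinases and regulators reached 1 TPM in each library, with 0 higher and 13 lower in replicate 3 with TMM over all genes. On the scale of genes with no other-strand gene within 5 kb the count was 2 higher and 3 lower, and the median log2 difference was −0.095 in place of −0.55. Pik3cd, the leukocyte PI3K catalytic subunit, stood at 126 ± 60.7 TPM, the 14-3-3 gene Ywhab at 62.2 ± 28.2 TPM and Mtor lowest at 6.83 ± 3.68 TPM. Akt1 stood at 35.1 ± 19.3 TPM and Akt2 at 13.4 ± 7.32 TPM.

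Of 16 HMG and Groucho partners, 13 reached 1 TPM in each library, and of 14 tested 0 were higher and 9 lower in replicate 3 with TMM over all genes. Scaled on genes with no other-strand gene within 5 kb, 2 were higher and 2 lower, and the median log2 difference turned to 0.038, against −0.42. Aes, a short Groucho-family protein, stood at 121 ± 63.7 TPM and the deacetylase gene Hdac1 at 42.9 ± 21.4 TPM, while Pygo1, a beta-catenin coactivator gene, had 0 counts. Ctnnb1, which encodes beta-catenin, stood at 36.4 ± 15.7 TPM with exon overlap. Among the Groucho corepressor genes Tle3 led with 20.4 ± 10.3 TPM, against 13.4 ± 8.05 for Tle4, 2.27 ± 1.53 for Tle1 and 0.303 ± 0.387 for Tle2.

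All 14 partners of BCL11B and SATB1 reached 1 TPM in each library, with 0 higher and 9 lower in replicate 3 with TMM over all genes. Scaled on genes with no other-strand gene within 5 kb, 4 were higher and 2 lower, and the median log2 difference turned to 0.16, against −0.29. The NuRD helicase gene Chd4 led at 101 ± 45.1 TPM, followed by Ctcf at 89.6 ± 36.2 TPM, and Mta3 was lowest at 11.6 ± 6.58 TPM. Of the other 16 T cell transcription factors, 10 were lower and 0 higher in replicate 3 with TMM over all genes, and 6 lower and 2 higher on the other scale, with medians of −0.51 and −0.054. Ets1 stood at 183 ± 122 TPM and Ikzf1 at 164 ± 85.7 TPM, both above Lef1 and below Tcf7, and Myb was lowest at 5.01 ± 2.99 TPM.

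The lists of BACH2-repressed genes and effector factors had the lowest median levels of the 7. Of 12 BACH2 partners and repressed genes, 6 reached 1 TPM in each library, with a median of 1.18 TPM. Nfe2l2, which encodes the stress factor NRF2, led at 34.8 ± 7.98 TPM and was higher in replicate 3, and Id2, an inhibitor of E proteins, followed at 23.9 ± 17.1 TPM and was lower, while on the other scale 2 of the list were higher and 0 lower. Ifng, Gzmb and Ccl5 had 4, 2 and 2 counts over the 3 libraries, and Il1rl1, the interleukin 33 receptor gene, had 0.

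Of 14 effector transcription factors, 6 reached 1 TPM in each library, with a median of 1.30 TPM, and 7 have exon overlap. Of the 6 tested between libraries, 3 were lower in replicate 3 and 1, Irf4, higher, with 54, 37 and 28 counts. Of all genes tested, 29.2% were lower and 33.2% higher. On the other scale 2 were higher and 2 lower, and the median turned to 0.16, against −0.28. Batf led at 37.3 ± 9.28 TPM, and Zeb2, a factor of terminal effector cells, had 0 counts. Prdm1, which BACH2 represses and which encodes BLIMP1, stood at 1.81 ± 0.651 TPM with 15, 28 and 12 counts. Tbx21 had 4 counts over the 3 libraries, against 9062 for Tcf7.

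By the Euclidean distance of log2 CPM deviations over the 3 libraries, the protein-coding genes most like Tcf7 were Fryl (0.0054), Mus81 (0.0087) and the T cell surface gene Cd5 (0.014). The nearest to the median pattern of the 8 genes were Ncln (0.011), Zfp954 (0.013) and Ly6e (0.017). Of 3363 candidate genes, 253 lay within 0.1 of Tcf7, so over 3 libraries this likeness is shared by many genes.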

How the data were processed

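Total RNA-seq was analysed in 3 libraries of 1 group. Each deposited table gives a whole-number count per gene. Per the file headers, the authors ran featureCounts 1.4.6-p4 on GENCODE M13 with strand setting 1 and required both ends to map. The alignment file named in the headers refers to STAR and the labels give mm10. No option for multi-mapping reads is in the headers. Symbols came from GENCODE M21 for 50376 of 50600 identifiers, and 224 had none. TPM was computed here from the counts and the deposited summed exon length.

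Of all genes, 10662 passed edgeR 4.0.16 filterByExpr. Libraries were compared per gene by a Poisson chi-square test on TMM sizes with Benjamini-Hochberg adjustment over all of them at 0.05, after testing on simulated data. DESeq2 1.42.0 size factors were an alternative. The labels call the samples biological replicates but give the same donor identifier, so p-values measure only the spread between these samples. Intervals cover counting error only. Ratios against 0 counts used 3 counts in each library. Strand neighbours were found with bedtools 2.31.1. Start windows are from RefSeq (GRCm38.p6).

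The members and lists were chosen with earlier results of these data known. The genes named are the 8 members, their relatives, the features on the other strand, the 2 highest and the lowest of each list, and the 3 nearest patterns. The other list members and same-strand features that are named were chosen after their values were seen. Some planned items are not reported here.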

Additional observations from a re-analysis of the deposited data

How the results depend on the processing

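Over 163 values under alternative settings, 123 stayed on their side of the threshold, close to the count as reported or within the replicate spread, 24 moved, 12 became weaker, 3 stronger and 1 reversed. The number of the 8 genes that varied beyond counting error was 7, and it was 4 with the scale set by genes with no other-strand gene within 5 kb, 0 with edgeR's common dispersion of 0.141 added (0 at an unadjusted p under 0.05, and 7 with DESeq2 size factors), and 5 to 7 with 1 library left out. Of the 80 list genes tested, 54 varied, 0 with the dispersion added (0 of 80 at an unadjusted p under 0.05), and 20 to 49 with 1 library left out, the lowest without replicate 3. Of all genes tested, 62.4% varied, and 53.1% with the scale set by genes with no other-strand gene within 5 kb. The share was 3.79% with the dispersion added, and 28.1% to 60.8% with 1 library left out, the lowest without replicate 3. The added variance widens the test by construction. The called value that changed sign was Lef1, at −0.66 on library totals, and the cause was not tested. Uncalled values changed sign for Foxo3, at 0.11 on the scale of genes with no other-strand gene within 5 kb, and for Foxp1 over Foxp4, at −0.041 without replicate 2. The median level of the 8 genes was 41.3 TPM, 96.3 TPM over protein-coding genes without mitochondrial genes, 142 TPM over genes with no exon overlap, and 28.1 to 53.3 TPM with 1 library left out. With 1 library left out, 5 to 6 neighbours in the order were separated and 8 to 9 of the 11 pairs with a relative had the listed gene higher. The longest GENCODE M21 transcript as length was chosen after seeing the data. Foxp1 over Foxp4 kept 1 direction in every library used, with a counting interval that left out a ratio of 1, without replicate 3 (mean log2 ratio 0.43) and without length scaling (1.64). Foxp1 over Foxp3 (−1.11) and Foxo1 over Foxo4 (−0.37) no longer met both conditions without length scaling. No paired analysis was possible because the study has 1 group. Depth limits the genes with few counts, such as Tcf7l2 and Tbx21, and 3 libraries cannot give an exact sign-flip p below 0.25.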
